A study of Mus musculus with 9 samples.

Results

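The transcripts of the p53 gene (Trp53) and of 9 of its direct target genes were followed in mouse embryonic stem cells. The cells went through a treatment meant to remove Suz12 and a washout meant to let it return. The 10 genes were taken from a list of p53 and established targets, matched by gene symbol to the gene identifiers. They are 10 of the 48440 genes counted, and all 10 passed the filter on low counts. They are Trp53, Mdm2, Cdkn1a, Ccng1, Trp53inp1, Pmaip1, Bbc3, Bax, Zmat3 and Phlda3.

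p53 is a transcription factor that is kept scarce in unstressed cells because Mdm2, the product of one of its own targets, marks it for destruction. DNA damage and other stresses free it from Mdm2, after which it binds its response elements and raises genes for cell cycle arrest, repair and apoptosis. This control acts mostly on the protein, so the level of the Trp53 mRNA is no measure of p53 activity, which is commonly read from the targets. Mouse embryonic stem cells are known to hold much p53 protein in the cytoplasm and to divide with a short G1 phase.

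The cells were J1 mouse embryonic stem cells with the genotype Suz12-AID, in which Suz12, a core subunit of Polycomb repressive complex 2, carries an auxin-inducible degron. All groups carried this tag, and all were grown in medium with LIF and the 2i inhibitors PD0325901 (1 µM) and CHIR99021 (3 µM). Mock cells were the controls, and Auxin cells were kept in 50 µM auxin (indole-3-acetic acid) for 96 h. Reintroduction cells were given the same 50 µM auxin for 96 h and then a washout of 4.5 h, meant to let the protein return. That return is not checked by these data. Each group held 3 libraries of polyadenylated RNA, which the design calls biological replicates, and the labels do not say whether the tagged cells are 1 clone. Untagged cells given auxin were not analysed here, so an effect of auxin itself and of losing Suz12 cannot be told apart. The questions are which of these transcripts differ between Auxin and Mock cells, and which are back at the Mock level hours after washout.

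Library totals ran from 44341283 to 113931419 counts, with each mate of a read pair counted. The lowest count of a member was 285, for Bbc3 in Reintroduction replicate 2. Suz12 mRNA did not pass the test in Auxin against Mock (141.3 CPM in Auxin and 133.1 CPM in Mock, adjusted p = 0.349). In Reintroduction it stood at 167.6 CPM, higher than in Mock (log2 fold change 0.33, adjusted p = 0.00341) and than in Auxin (0.25, adjusted p = 0.0245). The Suz12 gene shares 178 exon bases with Gm26563. Auxin is meant to remove Suz12 protein, which RNA counts do not measure, and the depletion is therefore not checked by these data. Levels are given as CPM, counts scaled to the library's size with TMM factors. Called means an adjusted p under 0.05, by edgeR's quasi-likelihood test with Benjamini-Hochberg adjustment over all genes tested. Auxin replicate 2 stood apart from the other Auxin libraries in several members, most of all in Cdkn1a, Ccng1, Trp53inp1, Bax, Trp53 and Phlda3. Relative to each gene's mean over the 9 libraries, the Mock libraries leaned towards short genes (log2 CPM changed by -0.18 to -0.13 per doubling of gene length). On the same relative scale, the Auxin and Reintroduction libraries leaned towards long ones (0.03 to 0.12). For the main results that move when this trend, or this trend and that of GC content, is removed, the value without it is given as well. In bulk RNA, fewer cells of a type and less RNA per cell cannot be told apart.

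A p53 response element is a pair of 10-base elements, each built around a core with C at its start and G at its end, which may be separated by a short spacer. The RefSeq promoter windows of build GRCm38.p6, which reach from 250 bases before to 50 bases after a start, were searched for this pair with both C and G required in each core. The p53 consensus reads the same on both strands, so both were covered, and spacers of 0 to 13 bases were allowed. The windows of 7 members are described here, 10 windows in all, and none of Pmaip1, Zmat3 or Trp53inp1 is among them. For the 5 genes with at most 3 mismatches to the consensus, the best match in the gene's windows follows. Whether p53 binds these matches was not tested. The matches are printed 5′ to 3′ on the gene's strand, with the central 4 bases of each element in capitals.

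Cdkn1a: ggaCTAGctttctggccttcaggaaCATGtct

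Ccng1: agaCCTGcccgggCAAGcct

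Bax: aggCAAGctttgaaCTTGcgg

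Trp53: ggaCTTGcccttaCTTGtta

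Bbc3: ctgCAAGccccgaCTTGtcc

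The Cdkn1a match lies at chr17:29090906-29090937 on the plus strand, 73 bases before the start, and has 0 mismatches with a spacer of 12 bases. Only 24 of 32851 promoter windows (0.0731%) hold a match with 0 mismatches. The Ccng1 match at chr11:40755462-40755481 (minus strand, 195 bases before the start) has 1 mismatch and no spacer, and at most 1 mismatch is found in 0.627% of windows. The Bax match at chr7:45467079-45467099 (minus strand, 201 bases before the start) has 2 mismatches and a spacer of 1 base, against 4.09% of windows with at most 2. The Trp53 match (chr11:69580284-69580303, plus strand) and the Bbc3 match (chr7:16309486-16309505, plus strand) have 3 mismatches each, which 15.6% of windows reach. The best matches of Mdm2 and Phlda3 have 4 and 5 mismatches. Cdkn1a and Bbc3 have more than 1 window each, and their best match is set beside a share of single windows. A gene with more windows reaches a given number of mismatches more easily than that share says. A match is a description of these letters, and the search says nothing about elements in introns or farther upstream.

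In Auxin against Mock, 9 of the 10 genes were called, where 73.2% of all 20838 genes tested were called. The 5 higher were Pmaip1, Trp53inp1, Cdkn1a, Mdm2 and Ccng1, and 38.4% of all genes were called higher. The 4 lower were Bax, Phlda3, Bbc3 and Trp53 itself, and 34.8% of all genes were called lower. Both a call and a change of at least 2-fold were reached by Pmaip1 and Trp53inp1, 2 of 10, against 31.8% of all genes. The median log2 fold change of the 10 was 0.24, against 0.05 for all genes tested. The split of 5 higher and 4 lower became 6 and 1 with total counts, 6 and 2 with a filter of at least 1 CPM in 3 libraries, 5 and 3 with the length trend removed, and 5 and 2 with the length and GC trends removed. It was also 5 and 2 in a fit of only the 2 groups compared, without Mock replicate 1 and without Auxin replicate 3. A share of 9 in 10 lies near the background in a comparison that called most genes, so the members are described one by one below.

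**Figure D1:**
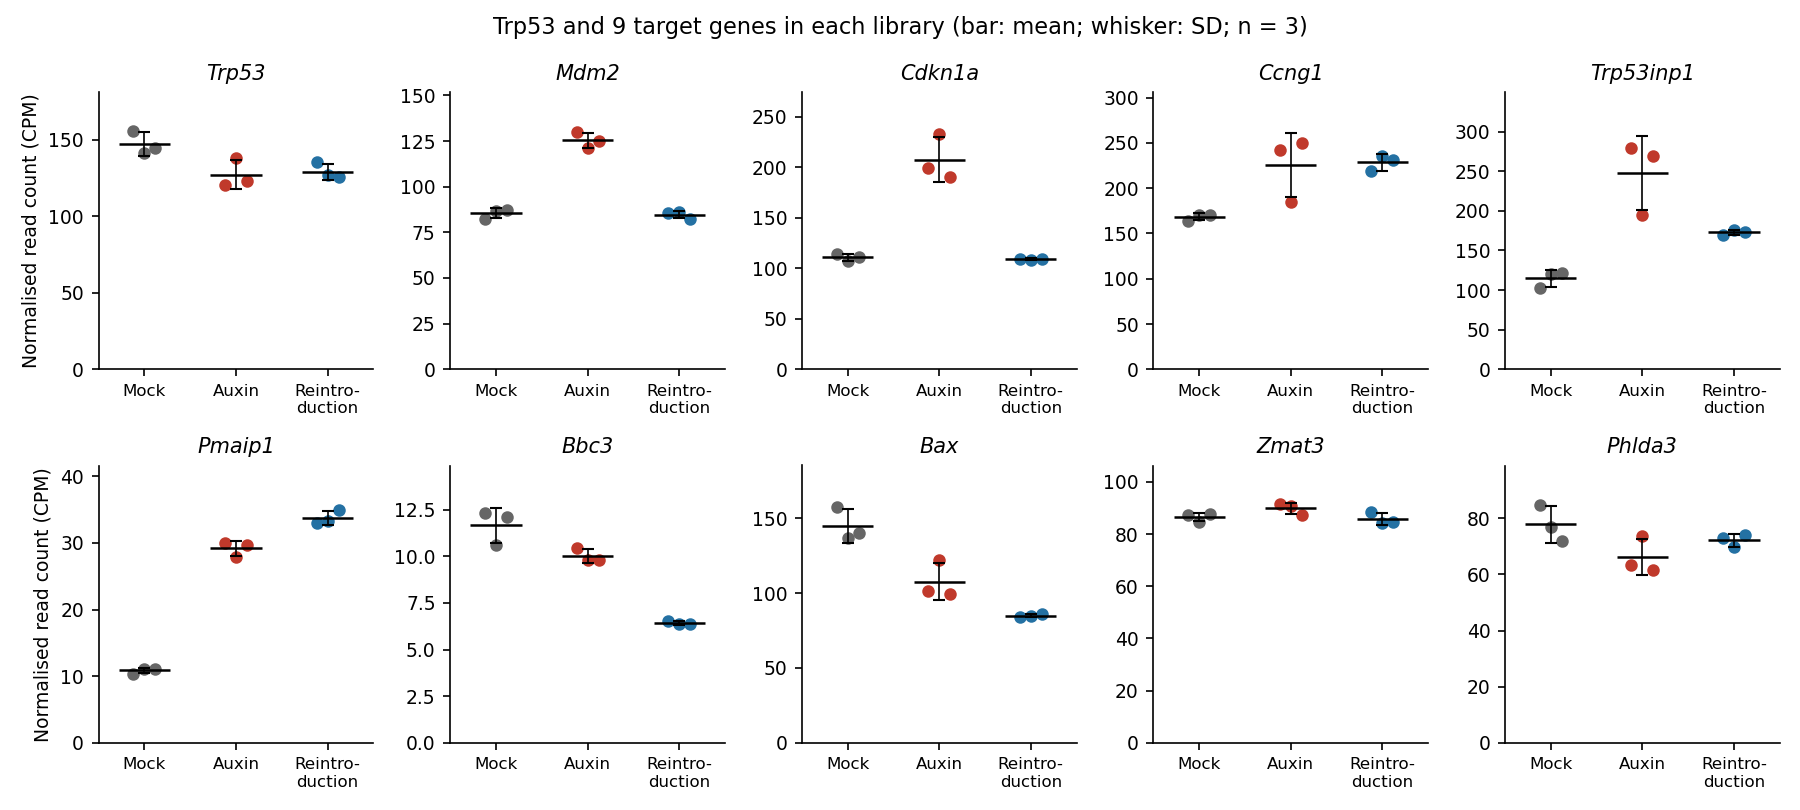
Normalised read count (CPM, linear axis from 0) of Trp53 and the 9 target genes in each library, with 1 panel for each gene and its own scale. Points are libraries, bars are means and whiskers are SD (n = 3); Mdm2 and Cdkn1a are high in Auxin only, Pmaip1 is high in Auxin and Reintroduction, and Bax and Bbc3 step down from Mock to Auxin to Reintroduction.

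Trp53 (ENSMUSG00000059552.13, mm10 chr11:69580359-69591873, plus strand) encodes p53. It stood at 155.7, 141.1 and 144.7 CPM in the Mock libraries, at 120.7, 137.9 and 123 CPM in Auxin, and at 135.3, 126.8 and 125.5 CPM in Reintroduction. All Mock libraries lay above all Auxin and Reintroduction libraries, by a small margin, and the latter groups overlapped. Trp53 fell by 0.21 on the log2 scale in Auxin against Mock (SE 0.065, adjusted p = 0.0124) and stayed 0.19 lower in Reintroduction against Mock (log2 fold change -0.19, adjusted p = 0.0238). Without Auxin replicate 2, the highest of its group, the change in Auxin was -0.28. Between Auxin and Reintroduction the difference was 0.02, with a 95% interval from -0.12 to 0.17. Both calls were lost when libraries were scaled by total counts alone (log2 fold changes of 0.00 and -0.06), and the call against Mock in Reintroduction was also lost without Mock replicate 1 or without Reintroduction replicate 2.

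Mdm2 (ENSMUSG00000020184.14, chr10:117688888-117710758, minus strand) encodes the ubiquitin ligase that limits p53 and is itself a p53 target. The Mock libraries held 82.3, 86.43 and 87.5 CPM, the Auxin libraries 129.7, 121.3 and 125.2 CPM, and the Reintroduction libraries 85.41, 86.36 and 82.43 CPM. The Auxin libraries lay clear above all others, while Mock and Reintroduction covered the same range. Mdm2 rose 1.47-fold in Auxin against Mock (95% interval 1.36 to 1.59, adjusted p = 1.44e-06) and fell by 0.57 on the log2 scale in Reintroduction against Auxin (adjusted p = 4.25e-06). Reintroduction differed from Mock by -0.01, with an interval of -0.12 to 0.10. With the length trend removed the rise was smaller, at a log2 fold change of 0.29 in place of 0.55, and Reintroduction was then below Mock (-0.25, adjusted p = 6.77e-04).

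Cdkn1a (ENSMUSG00000023067.13, chr17:29090979-29100722, plus strand) encodes p21, the inhibitor of cyclin-dependent kinases through which p53 stops the cell cycle. Its levels were 114.3, 107 and 110.7 CPM in Mock, 199.3, 232.3 and 190.3 CPM in Auxin, and 109.2, 107.8 and 109.4 CPM in Reintroduction. Every Auxin library was far above every other library, and the Reintroduction libraries lay inside the Mock range. Cdkn1a rose 1.87-fold in Auxin (interval 1.68 to 2.09, adjusted p = 4.25e-07) and fell by 0.93 on the log2 scale in Reintroduction against Auxin (adjusted p = 1.36e-06). The difference of Reintroduction from Mock was -0.02 (interval -0.18 to 0.13), and 0.19 with the length and GC trends removed (adjusted p = 0.00424). The rise was as clear without Auxin replicate 2, the highest library (log2 fold change 0.81 in place of 0.91).

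Ccng1 (ENSMUSG00000020326.7, chr11:40748552-40755311, minus strand) encodes cyclin G1, which recruits a phosphatase to Mdm2. It stood at 164, 170.2 and 170.9 CPM in Mock, at 242.7, 185.1 and 250 CPM in Auxin, and at 218.5, 236 and 231.3 CPM in Reintroduction. All Auxin and Reintroduction libraries were above all Mock libraries, with Auxin replicate 2 only slightly so. Ccng1 rose 1.34-fold in Auxin against Mock (interval 1.16 to 1.55, adjusted p = 0.00191), a log2 fold change of 0.42 that was 0.54 without Auxin replicate 2 and 0.22 with the length and GC trends removed. It was 1.36-fold above Mock in Reintroduction (adjusted p = 0.00173). No fall on washout was called with all libraries: the difference from Auxin was 0.02 (interval -0.19 to 0.23, adjusted p = 0.90). Without Auxin replicate 2 that difference turned to -0.12 and was called (adjusted p = 0.0335), and with the length and GC trends removed the excess over Mock in Reintroduction was 0.06 and no longer called.

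Trp53inp1 (ENSMUSG00000028211.11, chr4:11156431-11174379, plus strand) encodes a stress protein that promotes phosphorylation of p53 and takes part in autophagy. Its levels were 102.2, 120.4 and 121 CPM in Mock, 279.9, 194.7 and 269.8 CPM in Auxin, and 169.6, 175.3 and 173.5 CPM in Reintroduction. The 3 groups did not overlap, with Reintroduction between the others and Auxin replicate 2 the lowest of its group. Trp53inp1 rose 2.17-fold in Auxin against Mock (interval 1.80 to 2.60, adjusted p = 6.20e-06), and the log2 fold change was 1.26 without Auxin replicate 2 and 0.58 with the length and GC trends removed. It fell by 0.52 on the log2 scale in Reintroduction against Auxin (adjusted p = 0.00358). The excess over Mock that remained in Reintroduction, at a log2 fold change of 0.59 (adjusted p = 0.00102), was -0.15 with the length and GC trends removed (adjusted p = 0.0296), so its direction depends on that trend.

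Pmaip1 (ENSMUSG00000024521.7, chr18:66458604-66465550, plus strand) encodes Noxa, a BH3-only protein that binds Mcl1. It stood at 10.38, 11.07 and 11.12 CPM in Mock, at 29.98, 27.92 and 29.69 CPM in Auxin, and at 33.01, 33.37 and 34.97 CPM in Reintroduction. The groups were apart in that order, with little spread within each. Pmaip1 rose 2.69-fold in Auxin against Mock (interval 2.46 to 2.94, adjusted p = 2.98e-09) and was 3.11-fold above Mock in Reintroduction (adjusted p = 5.05e-09). The further rise on washout was small, at a log2 fold change of 0.21 (adjusted p = 0.00908). That call was lost with total counts (0.13), with the length and GC trends removed (0.07) and without Reintroduction replicate 3 (0.17).

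Bbc3 (ENSMUSG00000002083.13, chr7:16308393-16318205, plus strand) encodes Puma, the BH3-only protein that carries much of p53-driven apoptosis. Its levels were 12.33, 10.6 and 12.11 CPM in Mock, 10.44, 9.814 and 9.786 CPM in Auxin, and 6.537, 6.349 and 6.384 CPM in Reintroduction. The Reintroduction libraries were the lowest by a wide margin, while Auxin and Mock nearly touched. Bbc3 fell by 0.64 on the log2 scale in Reintroduction against Auxin (SE 0.076, adjusted p = 4.06e-05) and by 0.86 against Mock (adjusted p = 2.18e-06). The fall of 0.22 in Auxin against Mock (adjusted p = 0.0178) was lost in 7 of 19 alternatives and was 0.07, in the other direction, with the length and GC trends removed. The losses included leaving out Mock replicate 1, Mock replicate 3 or Auxin replicate 3.

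Bax (ENSMUSG00000003873.11, chr7:45461697-45466898, minus strand) encodes a pore-forming protein of the outer mitochondrial membrane on which the BH3-only proteins act. It shares 192 of its 1576 exon bases with Gm45808, and reads in the shared bases would be left out. It stood at 157.5, 136.6 and 139.9 CPM in Mock, at 101.5, 122.2 and 99.59 CPM in Auxin, and at 84, 84.89 and 85.94 CPM in Reintroduction. The groups did not overlap and stepped down in that order. Bax fell by 0.42 on the log2 scale in Auxin against Mock (SE 0.082, adjusted p = 6.32e-04), by 0.34 in Reintroduction against Auxin (adjusted p = 0.00477) and by 0.77 in Reintroduction against Mock (adjusted p = 9.65e-06). Without Auxin replicate 2, the highest of its group, these were -0.53 for Auxin against Mock and -0.26 for Reintroduction against Auxin. With the length and GC trends removed the change in Auxin was -0.07 and not called, while those in Reintroduction were -0.49 and -0.56 and called.

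Zmat3 (ENSMUSG00000027663.12, chr3:32334792-32366014, minus strand) encodes a zinc finger protein that binds RNA and takes part in splicing. It is the longest of the 10, with 11435 exon bases. It stood at 87.46, 84.76 and 87.63 CPM in Mock, at 91.42, 90.75 and 87.35 CPM in Auxin, and at 88.37, 84.38 and 84.82 CPM in Reintroduction, and the groups overlapped. Auxin differed from Mock by 0.05 on the log2 scale (interval -0.05 to 0.16, adjusted p = 0.327), and neither other comparison was called. With the length trend removed it was -0.62 in Auxin against Mock (adjusted p = 3.46e-05) and -0.67 in Reintroduction against Mock, so the direction against Mock depends on that trend.

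Phlda3 (ENSMUSG00000041801.5, chr1:135766119-135769136, plus strand) encodes a small protein that competes with Akt for membrane lipids. It stood at 84.67, 76.94 and 71.75 CPM in Mock, at 63.44, 73.64 and 61.43 CPM in Auxin, and at 72.91, 69.63 and 73.92 CPM in Reintroduction. All groups overlapped with at least one other, Auxin with Mock through Auxin replicate 2. The fall of 0.23 on the log2 scale in Auxin against Mock (adjusted p = 0.0198) was lost in 7 of 19 alternatives and was 0.12, in the other direction, with the length and GC trends removed. The losses included leaving out Mock replicate 1, Auxin replicate 1 or Auxin replicate 3. Without Auxin replicate 2 the change in Auxin was -0.32, and Reintroduction was called above Auxin (0.19, adjusted p = 0.0156) and below Mock (-0.13, adjusted p = 0.0448), neither of which was called with all libraries.

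In Reintroduction against Auxin, 6 of the 10 genes were called, against 50.9% of all genes. The 5 lower were Cdkn1a, Bbc3, Mdm2, Trp53inp1 and Bax (25.5% of all genes were called lower) and the 1 higher was Pmaip1 (25.5% called higher). No member was called with a change of at least 2-fold, which 11.0% of all genes reached, and the median of the 10 was -0.20 against 0.00 for all genes. In Reintroduction against Mock, 6 were again called, against 68.1% of all genes. Pmaip1, Trp53inp1 and Ccng1 were higher (34.7% of all genes) and Bbc3, Bax and Trp53 were lower (33.4%), and only Pmaip1 passed 2-fold, which 22.4% of all genes did. That split of 3 higher and 3 lower became 3 and 5 with the length trend removed, 3 and 6 with the length and GC trends removed, and 4 and 2 with total counts. The 3 comparisons share libraries, so their values are set side by side and not counted as separate evidence.

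**Figure D2:**
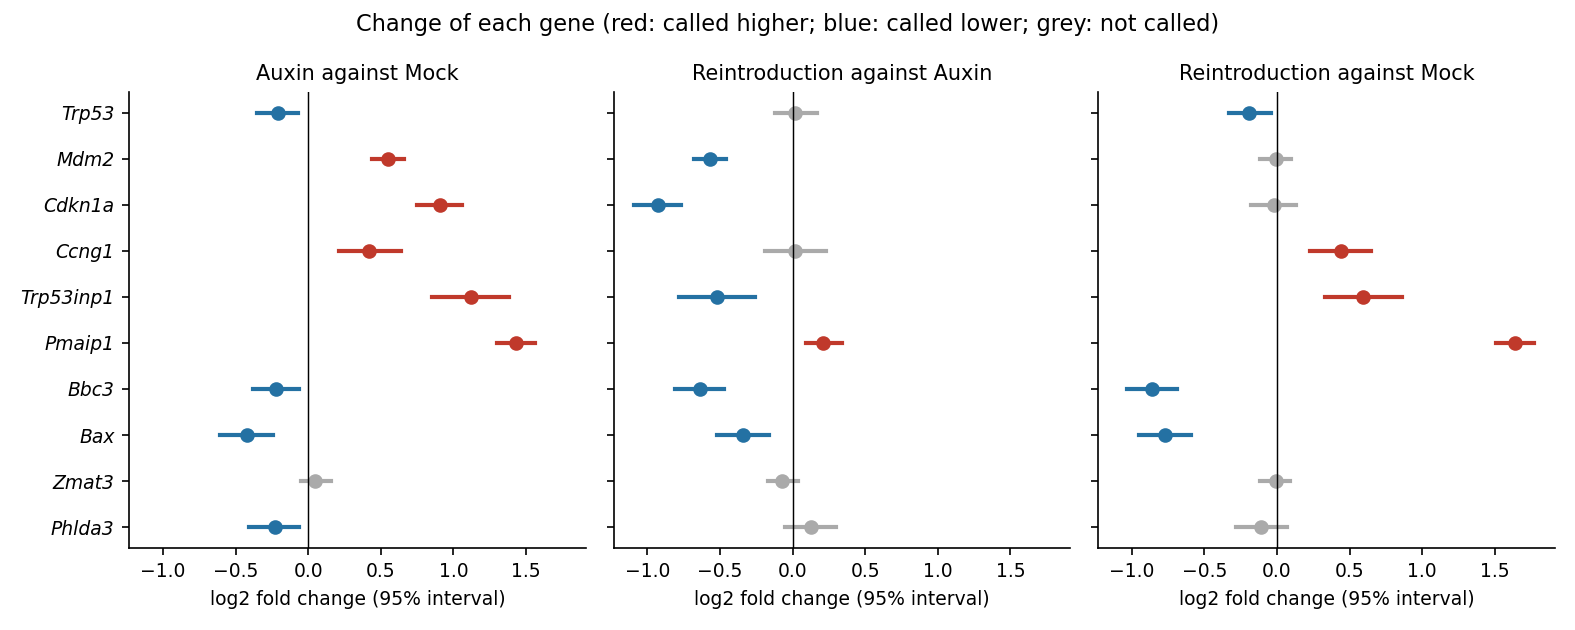
Log2 fold change (points) with its 95% interval (lines) of each gene in the 3 comparisons, from the edgeR fit; red is called higher, blue called lower, grey not called. Mdm2 and Cdkn1a rise in Auxin, fall in Reintroduction and sit at 0 against Mock, whereas Pmaip1 reaches 1.43 and 1.64 against Mock; the signs of the excess of Trp53inp1 in Reintroduction and of the falls of Bbc3 and Phlda3 in Auxin turn with the length and GC trends removed.

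Mdm2 and Cdkn1a were called higher in Auxin and, after washout, were not called against Mock. Trp53inp1 lay between the groups. Pmaip1 and Ccng1 were not called lower than in Auxin with all libraries. Bbc3 and Bax were lower than in either other group. Trp53 was called lower than Mock and not against Auxin, Zmat3 was called in no comparison, and Phlda3 was called only in Auxin against Mock. Each position is described from the 3 comparisons, and differences between the genes' patterns were not tested.

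Levels of different genes can be compared per length of exon sequence, as CPM per kb. In Mock the order was led by Bax at 91.8 CPM per kb, followed by Phlda3 at 49.9, Cdkn1a at 49.8 and Ccng1 at 47.9, which overlapped from one to the next. Trp53 followed at 36.4 CPM per kb, Trp53inp1 at 17.7 and Mdm2 at 16.8, of which the last pair overlapped. Zmat3 at 7.57, Bbc3 at 5.50 and Pmaip1 at 4.10 CPM per kb were the lowest and did not overlap. The p21 gene took the first place in Auxin, where Cdkn1a stood at 93.2 CPM per kb, above Bax at 68.4 and Ccng1 at 64.3, which overlapped. These levels are not corrected for the length and GC trends, without which the log2 fold change of Bax in Auxin was -0.07. The length of Bax also counts the 192 bases it shares with Gm45808. In Auxin, Phlda3 (42.4) overlapped with Trp53inp1 (38.3) and that with Trp53 (31.4), while Mdm2 (24.7), Pmaip1 (11.0), Zmat3 (7.86) and Bbc3 (4.71) did not. In Reintroduction no neighbours overlapped: Ccng1 led at 65.1 CPM per kb, before Bax at 53.9, Cdkn1a at 49.0 and Phlda3 at 46.3. The lower places in Reintroduction went to Trp53 (31.9), Trp53inp1 (26.7), Mdm2 (16.7), Pmaip1 (12.8), Zmat3 (7.51) and Bbc3 (3.02).

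The BH3-only genes Pmaip1 and Bbc3 changed places in this order, a comparison that was picked after the values were seen. The ratio of Pmaip1 to Bbc3 per length needs no scaling between libraries. The genes differ in GC content (42.1% and 65.2%), so a trend with GC content can enter the ratio. This ratio was 0.676, 0.838 and 0.737 in the Mock libraries, 2.31, 2.28 and 2.44 in Auxin, and 4.05, 4.22 and 4.40 in Reintroduction. Noxa mRNA was thus the lower of the pair in every Mock library and the higher in every other library. The ratio of Mdm2 to Trp53 was 0.422 to 0.489 in Mock, 0.702 to 0.858 in Auxin and 0.504 to 0.543 in Reintroduction. Cdkn1a to Trp53 gave 1.34 to 1.39, 2.81 to 3.07 and 1.47 to 1.59. Both were highest in Auxin, and lengths differ within each pair, so the trend with gene length enters these ratios.

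Among the members the most alike over the 9 libraries were Trp53 and Phlda3, whose log2 CPM, centred on each gene's mean, differed by 0.070 (root mean square). Bbc3 and Bax differed by 0.161 and Mdm2 and Cdkn1a by 0.194. Among 15181 genes that averaged 1 CPM or more, those most like Trp53 were Gng5-ps (0.017), Snapc2 (0.036) and Rab3ip (0.038). Gng5-ps has the name of a pseudogene, so its count is uncertain. Those most like Mdm2 were Dcaf8 (0.037), Epc1 (0.042) and Rabgap1 (0.046). Those most like Cdkn1a were Psat1 (0.031), Wars (0.033) and Vasp (0.046). Psat1, which encodes an enzyme of serine synthesis, is also a member of the stress list described below and had a mean of 217.6 CPM in Mock, rose to 421 in Auxin and was at 216 after washout.

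A list of 30 other p53 targets, all tested, was read from the same fit. Auxin had 16 higher and 11 lower than Mock, with a median log2 fold change of 0.35. With the length trend removed these were 13 and 12, with a median of 0.08. Gdf15, a secreted stress cytokine, rose 12.8-fold, from 1.393 to 17.84 CPM. Sesn2, a sestrin that restrains mTORC1, rose 2.94-fold, and Tnfrsf10b, a death receptor, rose 2.92-fold. Pidd1, a scaffold for caspase-2, fell by 1.21 on the log2 scale, the adenylate kinase gene Ak1 by 1.10, and Gtse1, which restrains p53 in G2, by 0.83. On washout 7 were higher and 13 lower, with a median of -0.13. Sesn2 fell by 2.49 on the log2 scale, Gdf15 fell by 3.64, to 1.449 CPM, and Abhd4 fell by 0.66. The sestrin gene Sesn1 (0.92), Steap3 (0.87) and Tigar (0.61) rose on the log2 scale. Tigar, which encodes a regulator of glycolysis, shares 122 exon bases with another gene.

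Against Mock, Reintroduction had 14 of the 30 higher and 12 lower (median 0.11, and -0.22 with the length and GC trends removed, with 10 higher and 15 lower). Perp, which encodes a desmosomal membrane protein, was 2.71-fold above Mock, Tnfrsf10b 1.90-fold and Sesn1 1.65-fold. Ptprv was lower by a log2 fold change of -2.00, with 345 of its exon bases shared with another gene. Ak1 (-1.05) and Sesn2 (-0.94) were lower too. In Auxin these other targets moved in both directions, as the members did. So did all genes tested, of which 38.4% were called higher and 34.8% lower.

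**Figure D3:**
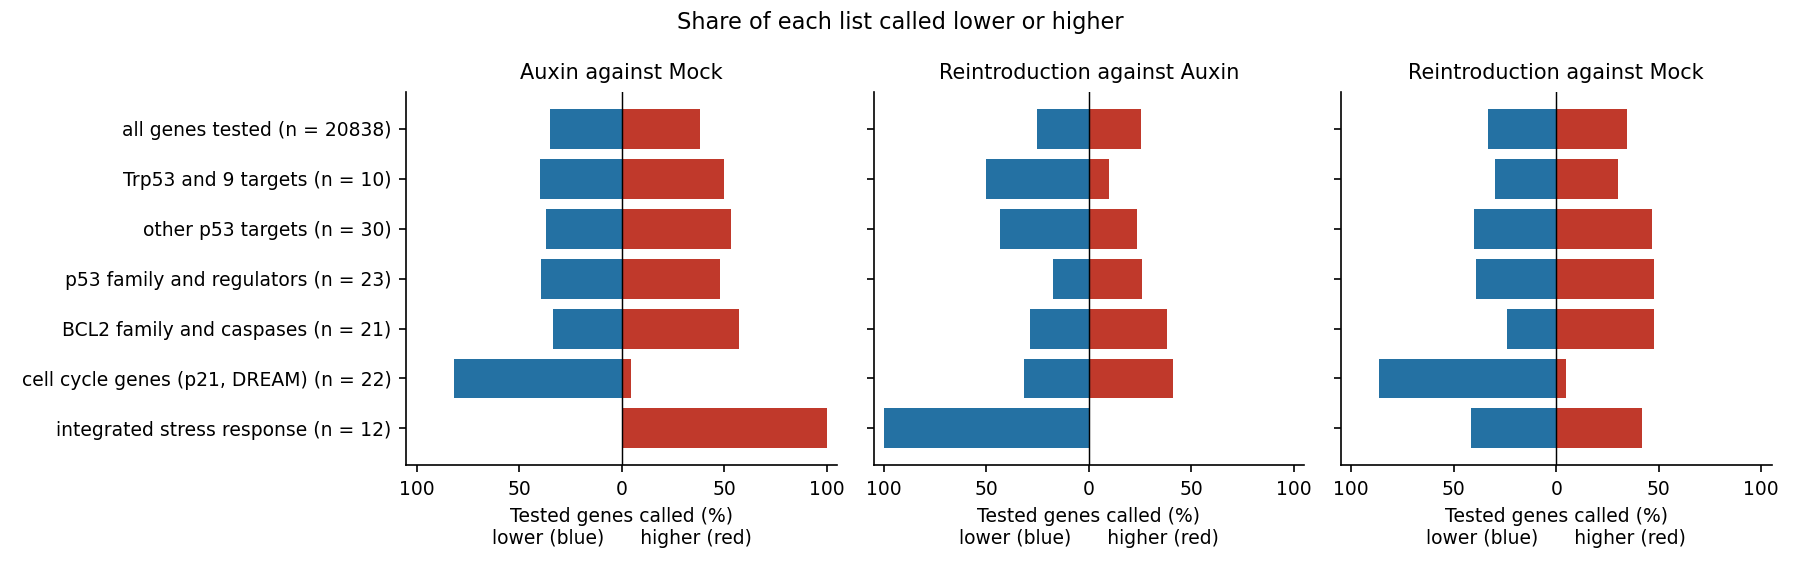
Percent of the tested genes of each list that were called lower (blue, to the left) or higher (red, to the right) in each comparison, with all 20838 genes tested at the top. The cell cycle list lies almost wholly to the left in both comparisons with Mock. The stress list lies wholly to the right in Auxin against Mock. The p53 lists lie on both sides, as do all genes tested.

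The genes that act on p53 formed a list of 24, of which 23 were tested (Trp63 was not). Auxin against Mock gave 11 higher and 9 lower (median 0.05, and -0.26 with the length trend removed, with 8 higher and 13 lower). Chek2, a checkpoint kinase that phosphorylates p53, fell by 1.62 on the log2 scale, from 81.38 to 26.5 CPM. Hipk2, a kinase of the apoptotic p53 response, rose 2.97-fold, and Ppp1r13b (ASPP1), which steers p53 to apoptotic genes, rose 2.93-fold. On washout 6 were higher and 4 lower. Usp7, the deubiquitinase of Mdm2 and p53, rose by 0.49 on the log2 scale, Ppp1r13l (iASPP), an inhibitor of p53, rose by 0.67, and Rchy1, a p53 ubiquitin ligase, fell by 0.48. Rchy1 shares 680 exon bases with another gene. Against Mock, Reintroduction had 11 higher and 9 lower (3 higher and 14 lower with the length trend removed). Chek2 was still lower (log2 fold change -1.52), and Ppp1r13b (1.54) and Hipk2 (1.69) were still higher.

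Of 22 other genes of the BCL2 family and of the caspases, 21 were tested (Bcl2a1b was not). Auxin against Mock gave 12 higher and 7 lower, with a median of 0.40 (0.11 with the length trend removed). Hrk, a BH3-only gene, rose 34.7-fold, from 1.957 to 67.6 CPM. The survival gene Bcl2l2 rose 2.51-fold, with 594 shared exon bases. On washout 8 were higher and 6 lower. Hrk fell by 4.89 on the log2 scale to 2.259 CPM, while Bok, a relative of Bax, rose by 1.53. Against Mock, Reintroduction had 10 higher and 5 lower (8 and 8 with the length trend removed). The BH3-only gene Bcl2l11 (Bim) was 2.33-fold higher, Casp6 was 2.17-fold higher, and Bak1, the partner of Bax, was lower (log2 fold change -1.24, with 357 shared exon bases). Among BH3-only genes, Hrk was not called against Mock after washout (log2 fold change 0.23, adjusted p = 0.15, and 0.36 and called with total counts).

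A list of 22 cell cycle genes that p53 is known to repress through p21 and the DREAM complex was tested in full. Auxin against Mock gave 18 lower and 1 higher, with a median of -0.71, and in Reintroduction against Mock 19 were lower and 1 higher, with a median of -0.64. Cdc25a, a phosphatase that starts S phase, fell by 1.98 on the log2 scale in Auxin, Aurkb, a mitotic kinase, by 1.41 and Kif20a, a mitotic kinesin, by 1.07. On washout 9 were higher and 7 lower (median 0.04). Cdc25a rose by 1.17 and Aurkb by 0.57 on the log2 scale, and Nek2 fell by 0.32. Against Mock, Ccnb2 (-0.93), Kif20a (-0.84) and Cdc25a (-0.81) were lower in Reintroduction. Kif20a shares 1259 exon bases and Nek2 298 with other genes. Most of these genes were below Mock in both groups, where 34.8% (Auxin) and 33.4% (Reintroduction) of all genes were called lower. Cdkn1a was above Mock in Auxin and at 108.8 CPM, against 110.7 CPM in Mock, in Reintroduction. The part of p21 in the levels of these genes was not tested.

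Several of the targets are also known to respond to ATF4, the factor of the integrated stress response, so 12 genes of that response were read beside them. All 12 were higher in Auxin against Mock, with a median log2 fold change of 4.38, and all 12 were lower in Reintroduction against Auxin, with a median of -4.11. Of all genes tested, 38.4% were called higher in the former and 25.5% lower in the latter. This list, like the others, was chosen with earlier results of these data known, so its agreement in direction is no independent result. Trib3 rose from 13.06 to 200.7 CPM and stood at 8.27 CPM in Reintroduction. Nupr1 rose 45.6-fold, and Vldlr rose from 0.2494 to 56.29 CPM. On washout, Chac1 fell by 7.59 on the log2 scale and Ddit3 (CHOP) fell by 3.77, and 81 exon bases of Ddit3 are shared with another gene. Against Mock, Reintroduction had 5 higher, among them Vldlr (2.78) and Nupr1 (1.07), and 5 lower, among them Trib3 (-0.66). The summed level of the 12 was 999.9 to 1067 CPM over the Mock libraries, 2887 to 3343 over the Auxin libraries and 1086 to 1149 over the Reintroduction libraries. Of the members, Mdm2, Cdkn1a and Trp53inp1 were likewise called higher in Auxin than in both other groups. So were, among others of the wider lists, Sesn2, Gdf15, Hrk, Tnfrsf10b and Abhd4. The other members were not, among them Pmaip1, at 29.2 CPM in Auxin and 33.78 CPM in Reintroduction. The share of all genes with this shape was not counted, and the part of the stress response in these levels was not tested.

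The markers of other cells were read in the same way. The 8 stem cell markers summed to 5089 to 5321 CPM over the Mock libraries, 5935 to 6437 over Auxin and 4496 to 4559 over Reintroduction, and none was at 0. In Auxin against Mock 6 were higher, among them Sox2 (1.00) and Klf4 (0.80), and 2 were lower, among them Dppa5a (-1.16). On washout 6 were lower, Sox2, Klf4 and Tdgf1 leading by p, and 1 was higher. Against Mock, Reintroduction had 4 lower, with Dppa5a (-0.73) and Pou5f1 (-0.55), and 1 higher, Sox2 (0.27). The 15 markers of other cell types summed to 134.6 to 137.9 CPM over the Mock libraries, 239.8 to 264.1 over Auxin and 178.5 to 181.8 over Reintroduction. Krt5 and Ptprc were at 0 in all Mock libraries, Col3a1 and Krt5 in all Auxin libraries, and Ptprc in all Reintroduction libraries. Of the 12 tested, 5 were higher and 5 lower in Auxin, 4 and 5 on washout, and 3 and 4 in Reintroduction against Mock (3 and 7 with the length trend removed). Most of the sum came from Pecam1 (66.85, 171.5 and 67.48 CPM in Mock, Auxin and Reintroduction), which naive stem cells also express, Thy1 (17.93, 41.22 and 37.52 CPM) and Eomes (35.37, 25.64 and 66.91 CPM). Gata4 was 7.019 CPM in Auxin against 1.699 CPM in Mock, and T fell from 9.819 to 0.2549 CPM. Mitochondrial genes took 3.79% to 4.0% of counts in Mock and Auxin and 4.58% to 4.80% in Reintroduction. The part of these differences in the levels of the p53 targets was not tested.

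**Figure D4:**
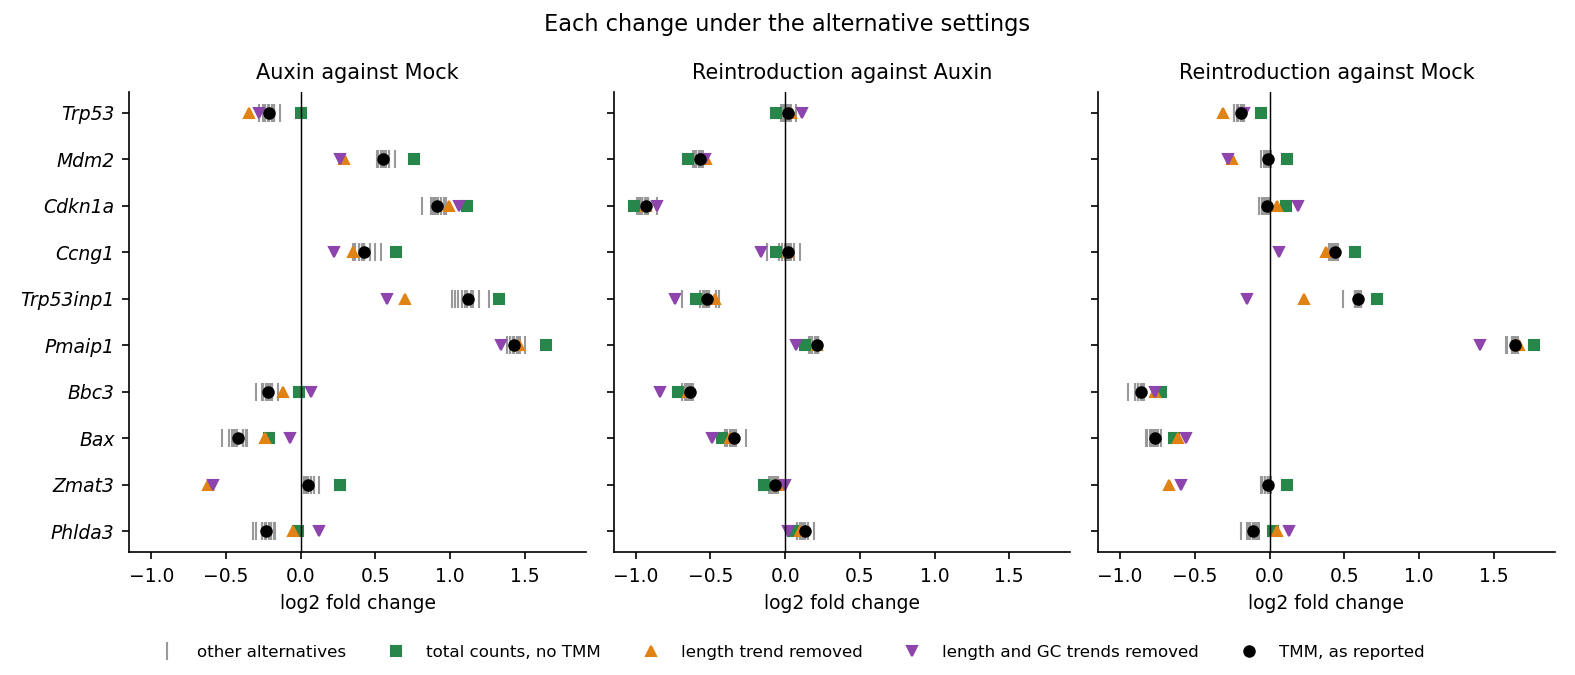
Log2 fold change of each gene in each comparison as reported (black) and under the alternative settings (grey ticks, with total counts, the length trend removed and the length and GC trends removed in colour). Pmaip1 does not go under 1.34 against Mock, nor Cdkn1a under 0.81 in Auxin against Mock, in any setting shown, while Zmat3 and the change of Trp53inp1 in Reintroduction against Mock cross 0.

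The settings left some of these results on firmer ground than others. In Auxin against Mock, the rises of Pmaip1 (log2 fold change 1.34 to 1.64 over 19 alternatives), Cdkn1a (0.81 to 1.11), Trp53inp1 (0.58 to 1.33), Mdm2 (0.26 to 0.76) and Ccng1 (0.22 to 0.64) were called in all. In Reintroduction against Auxin the same held for the falls of Cdkn1a (-1.01 to -0.86), Bbc3 (-0.84 to -0.62), Mdm2 (-0.65 to -0.53), Trp53inp1 (-0.74 to -0.44) and Bax (-0.49 to -0.26). Against Mock, Reintroduction kept the higher Pmaip1 (1.41 to 1.77) and the lower Bbc3 (-0.95 to -0.73) and Bax (-0.83 to -0.56) in all 19.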

How the data were processed

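Polyadenylated RNA of 9 libraries, 3 in each of 3 groups, was sequenced as 75 bp paired-end reads. The authors deposited a table of raw counts for each library. Per the file headers, they were made with featureCounts 2.0.6 on mm10 exons in paired-end mode with no strand setting. The option that counts a pair once was not set, so mates count separately. Among low counts, even values were more frequent than odd ones in every library. Trim Galore 0.6.10, Bowtie2 2.5.3 and SAMtools 1.20 stand in the submitters' processing notes, which name no role. Reads shared between genes or places are left out by default, and 9924 genes share exon bases.

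From these counts, 20838 genes passed edgeR's filterByExpr. One edgeR quasi-likelihood fit (edgeR 4.0.16, R 4.3.3) with TMM factors (0.905 to 1.08) and group as the only term covered all libraries, with Benjamini-Hochberg adjustment over all genes tested and two-sided tests. The common biological coefficient of variation was 9.15%. Intervals are 95%. Standard errors came from the F statistic. The alternatives included DESeq2 1.42.0, leaving out each library and removing trends of log2 counts with gene length and GC content (a spline with 5 degrees of freedom per library).

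The members and all 8 lists were chosen with earlier results of these data known. All members are named. Of each other list, the 3 called genes with the smallest p in a comparison are named, and of the other p53 targets the 3 smallest in each direction. One gene that this rule picks is not reported here. For Trp53, Mdm2 and Cdkn1a the 3 most similar genes are named. Symbols matched 48058 of 48440 genes. On simulated counts with 200 of 20838 genes changed 2-fold, the test recovered 76.5% (Auxin against Mock), 73% (Reintroduction against Auxin) and 75% (Reintroduction against Mock), with 6.13%, 8.75% and 7.41% of calls false. In the real libraries these comparisons called 73.2%, 50.9% and 68.1% of genes. The simulation therefore does not give the error rates where so many genes change.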

Additional observations from a re-analysis of the deposited data

How the results depend on the processing

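A change of at least 2-fold in addition to the call left 6625, 2289 and 4664 genes, and 2, 0 and 1 of the 10 p53 genes, in Auxin against Mock, Reintroduction against Auxin and Reintroduction against Mock, since most members changed less than 2-fold. Total counts moved the median of all genes from 0.05 to 0.26, from 0.00 to -0.08 and from 0.03 to 0.16, and the share of calls that were higher from 52.4% to 63.3%, from 50.0% to 40.1% and from 50.9% to 59.9%. No other setting changed a count of calls in both directions together by over 1.5 times. The count of members called lower in Auxin against Mock went from 4 to 1 with total counts, to 2 with at least 1 CPM in 3 libraries, the length and GC trends removed, only the 2 groups compared, without Mock replicate 1 and without Auxin replicate 3. In Reintroduction against Mock it went from 3 to 5 with the length trend removed and to 6 with the length and GC trends removed. The 1 member higher in Reintroduction against Auxin became 0 with total counts, with the length and GC trends removed and without Reintroduction replicate 3, and 2 without Auxin replicate 2. Directions turned in these cases, as log2 fold changes. In Auxin against Mock, the length trend removed gave -0.62 for Zmat3, and the length and GC trends removed gave -0.59 for Zmat3, 0.07 for Bbc3 and 0.12 for Phlda3. In Reintroduction against Auxin, Trp53 was -0.06 with total counts, -0.02 with at least 1 CPM in 3 libraries and -0.01 with counts halved, and Ccng1 was -0.06, -0.04 and -0.02. The length and GC trends removed gave -0.16 for Ccng1 and 0.0008 for Zmat3. In Reintroduction against Mock, total counts gave 0.12 for Mdm2, 0.11 for Cdkn1a, 0.12 for Zmat3 and 0.02 for Phlda3. The filter of 1 CPM gave 0.01 for Mdm2 and 0.01 for Zmat3. The length trend removed gave 0.05 for Cdkn1a and 0.05 for Phlda3, and the length and GC trends removed gave 0.19 for Cdkn1a, 0.13 for Phlda3 and -0.15 for Trp53inp1. Leaving out each library gave -0.03 to 0.07 for Trp53 and -0.12 to 0.10 for Ccng1 in Reintroduction against Auxin, and -0.06 to 0.0009 for Zmat3 in Reintroduction against Mock. The cause was not tested.

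The DESeq2 Wald test, DESeq2 size factors and no filter kept the direction and the call of all 30 results. The replicate numbers share no animal, culture or day in the labels, and same-numbered libraries did not deviate together (correlations from -0.546 to 0.449 over 9 pairs), with 2, 0 and 3 of 6 libraries correlating best with their own number in the 3 comparisons. With the replicate block, 9, 6 and 6 members were called, as without it, and none of the 30 results changed its call.

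With 3 libraries a group, the small changes of Bbc3 and Phlda3 in Auxin lie near the threshold, and their calls depend on single libraries. The mates of a pair are not independent, and halving the counts changed no call among the members. The windows hold no intron or distal element.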
